A study of Zea mays with 217 samples.

Results

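The maize CONSTANS-like (COL) genes examined here were COL2 (Zm00001d033719), COL3 (Zm00001d017176), COL7 (Zm00001d025770), COL8 (Zm00001d013443), COL13 (Zm00001d046925) and COL18 (Zm00001d015468), taken as targets of other transcription factors (TFs). They were chosen by gene identifier and not by a measured value, although earlier results of these data were known. All 6 were also among the 104 TFs profiled. The table of TF-target pairs held 20067 target genes, and 5 of the 6 COL genes had at least 1 row in it. COL8 had none.

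The study mapped TF binding by ChIP-seq in protoplasts (cells freed of their walls) from the leaf of maize inbred line B73 seedlings aged 1 to 2 weeks. Each TF was expressed from a plasmid introduced into the protoplasts, carrying a tag that is biotinylated so that the TF and its DNA can be pulled down with streptavidin, in addition to any native copy. The 217 libraries comprised 97 TFs with 2 libraries, 5 TFs with 3 and 2 TFs with 4, and each COL TF had 2 libraries. The replicates of a TF had been merged into 1 value per TF and gene before deposition, so no replicate spread can be given for any value here, no test between groups was possible, and the depth behind a value is unknown.

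COL proteins carry B-box zinc fingers and, in most members, a CCT domain. They are named after Arabidopsis CONSTANS, which links day length to flowering, and family members in Arabidopsis and rice act in photoperiodic flowering and light signalling. Several other TFs named below come from pathways that plants run in the same green tissue. GLK1 and GLK2 activate chloroplast and chlorophyll genes, while other TFs also carry the GLK family label and are not given that role here. The ZIM family includes the JAZ repressors of jasmonate signalling. EREB proteins belong to the ethylene-response factor family, and LHY, PRR and ELF3 are parts of the circadian clock.

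The value for each TF and gene is a p-value from the TIP model, which weighs the peaks near the start of a gene by the binding profile of that TF around the starts of all genes. A small p means strong or well-placed binding relative to that TF's own genome-wide profile. It says nothing about whether the gene's expression changed. The p-values of different TFs are not on a common scale, so an order by p can differ from an order by rank. Edges are called strong below by their p alone. The largest p-value in the table was just under 0.05, and a TF is said here to list a gene where the pair has a row. The study's methods name a false discovery rate as the threshold, and whether the listed p-values are adjusted ones could not be settled from the table. In-degree is the number of TFs, of 104, that list a gene. Peaks in a TF's own locus had been removed, so a TF listing its own gene could not be looked for.

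Start codons of the open reading frames that were cloned are shown for COL18 and COL3, the only COL genes with readable primer sequences. These starts come from the study's cloning primers, with the gene-specific first 20 bases printed 5′ to 3′ and the ATG in capitals.
COL18: ATGgaggccctggtggggag
COL3: ATGgacaccgcggcggagct
These stretches identify the 2 coding sequences expressed as TFs. They are not binding sites.

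The 6 COL genes received 139 edges, and these were unequally divided. COL18 was listed by 73 TFs, which is 70.2% of those profiled. COL13 was listed by 27 TFs (26.0%). COL7 was listed by 19 TFs (18.3%) and COL2 by 18 TFs (17.3%). The next gene stood far below these, since COL3 was listed by 2 TFs (1.92%), and COL8 by 0. Over all 104 TFs and all target genes of the table, 13.1% of the possible pairs were listed.

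Against the other targets, COL18 was a heavily listed gene. Its in-degree was reached or passed by 2.43% of target genes, and it stood at place 14 among the 104 genes that encode the profiled TFs. The median target gene was listed by 5 TFs and the median profiled TF gene by 15.5, and the most listed profiled TF gene by 95. COL13, COL7 and COL2 stood at places 44, 49 and 50, close to the middle of the TF genes, while 17.1%, 23.2% and 24.2% of target genes reached their in-degrees. COL3 was at place 82, and 77.6% of target genes were listed at least as often. COL8 shared its lack of a row with 7 other profiled TF genes, namely bHLH145, MYBST1, bHLH162, EREB71, MYB38, MYBR41 and TCP10. As a TF, COL8 listed 2849 genes, so its missing row as a target did not go with a short list of its own.

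**Figure D1:**
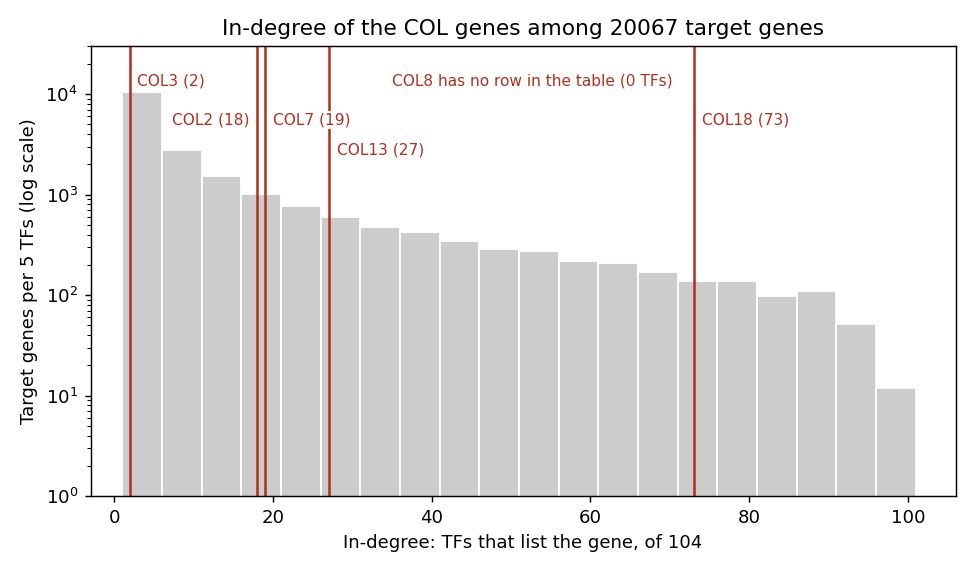
Histogram of in-degree (x axis, TFs that list a gene) over the 20067 target genes in steps of 5 TFs, with a log y axis for the number of genes and red lines at the COL genes. COL18, at 73 TFs, lies in the sparse right tail, COL2, COL7 and COL13 lie between 18 and 27, and COL3 lies at 2.

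The strength of the edges differed between the genes as well as their number. Of the 139 edges, 50 had a p of 0.001 or less, a share of 36%, against 27.2% over all listed pairs of the table. COL18 held 36 of the 50, which is 49.3% of its own edges. COL13 held 7 (25.9% of its edges), COL2 held 6 (33.3%), COL7 held 1 (5.26%) and COL3 held 0. The median p of an edge was 0.00120 for COL18 and 0.00997 for COL2. It was 0.0166 for COL7, 0.0207 for COL13 and 0.0294 for COL3, against 0.00809 over all listed pairs. Only COL18 thus had a median p below that of the whole table. COL13 had 7 edges with a p above 0.04, more than any other COL gene.

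The summed −log10 p, a weight that counts both the number and the strength of edges, was 271 for COL18 and 100.5 for COL2. It was 64.5 for COL13, 41.5 for COL7 and 3.22 for COL3. COL2 thus came ahead of COL13 and COL7 on this weight although it had the fewest TFs of the 3. A single TF, GLK1, supplied 55.1% of the COL2 sum.

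**Figure D2:**
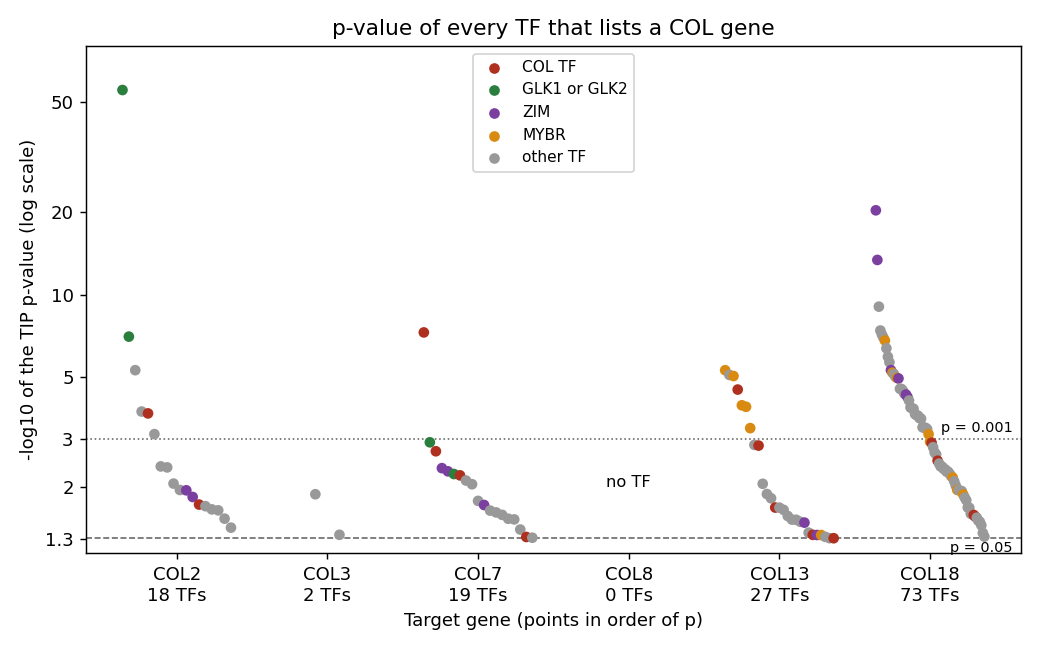
The −log10 of the TIP p-value (y axis, log scale) for each TF that lists a COL gene, with genes on the x axis, points in order of p and colours for the class of the TF. GLK1 stands apart at the top of COL2 with a p of 4.62e-56, COL8 leads COL7, MYBR proteins crowd the top of COL13, and ZIM28 and ZIM1 lead COL18.

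COL2 was the gene with the single smallest p, from GLK1, an activator of chloroplast development. GLK1 listed COL2 with a p of 4.62e-56, at rank 18 of its 1193 targets. GLK2, its paralog, listed COL2 with a p of 9.23e-08, at rank 278 of 2069. The remaining 5 GLK-family TFs profiled did not list COL2. The next p-values for COL2 were those of GRAS23 (4.86e-06, rank 609 of 1749), bHLH47 (1.74e-04, rank 390 of 3077) and COL3 (1.99e-04, rank 632 of 3214). The homeobox proteins HB84 (7.71e-04, rank 785 of 2479) and HB70 (0.00421, rank 1403 of 3194) followed, and bHLH43 (0.00440, rank 984 of 3135) was the eighth. These TFs mostly placed COL2 in the upper or middle stretch of their lists, and only GLK1 placed it among its best 100. Over all 18 edges of COL2, the median position was at 52.6% from the top. COL18 was the other COL TF to list COL2, with a p of 0.0188 at rank 2187 of 3174. None of the 10 MYBR, 9 MYB, 6 bZIP and 5 WRKY proteins listed COL2, against a share of 17.3% over all TFs.

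COL7 had a different leading TF. COL8 listed it with a p of 5.17e-08, at rank 209 of 2849, which was the only edge of COL7 with a p of 0.001 or less. GLK1 (0.00124, rank 623 of 1193) and COL2 (0.00201, rank 1168 of 3296) came next. The ZIM proteins ZIM16 (0.00455, rank 1512 of 2838) and ZIM3 (0.00524, rank 1558 of 3242) followed. After them stood GLK2 (0.00590, rank 1218 of 2069), COL18 (0.00624, rank 1498 of 3174) and EREB98 (0.00773, rank 1067 of 2970). Apart from COL8, then, these leading edges sat in the middle of the TFs' lists. Over all 19 edges of COL7, the median position was at 67.8% from the top. COL13 listed COL7 near the very end of its own list, with a p of 0.0482 at rank 2884 of 2927. GLK1 and GLK2 were the GLK proteins that listed COL7, as they were for COL2, and the other 5 did not list it.

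COL13 had MYB-related (MYBR) proteins at the head of its ranking by p. By position in the TF's own list, EREB17 (at 7.10% from the top) stood ahead of MYBR26 (at 38.1%). MYBR26 had the smallest p, 4.88e-06, at rank 623 of 1637. EREB17 (7.81e-06, rank 234 of 3294), MYBR43 (8.72e-06, rank 442 of 2666) and COL8 (3.03e-05, rank 556 of 2849) came next. MYBR17 (1.09e-04, rank 513 of 2905), MYBR41 (1.22e-04, rank 570 of 3176), MYBST1 (5.34e-04, rank 749 of 2983) and bHLH145 (0.00143, rank 1126 of 2413) completed the first 8. MYBST1 is a member of the MYBR family, so 5 of the 8 smallest p-values for COL13 were from MYBR proteins. The ninth was COL2 (0.00149, rank 1083 of 3296), close to bHLH145. ZIM16 and ZIM3 were further down, with p-values of 0.0328 and 0.0458. Over all 27 edges of COL13, the median position was at 66.2% from the top.

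COL18 drew its smallest p-values from several families. ZIM28 had a p of 5.86e-21, at rank 22 of 2576, and ZIM1 had a p of 4.37e-14, at rank 148 of 1526. Both carry the ZIM family label, and that family includes repressors of jasmonate responses. HB70 (9.14e-10, rank 62 of 3194), bZIP113 (3.95e-08, rank 304 of 2053) and EREB71 (6.92e-08, rank 113 of 3422) followed. TCP23, of a family known for control of organ growth, had a p of 1.04e-07 at rank 369 of 1697, MYBR43 had 1.55e-07 at rank 245 of 2666 and HB33 had 4.18e-07 at rank 397 of 2068. COL18 was among the best 100 targets of 4 TFs, namely ZIM28, HB70, EREB147 (3.36e-05, rank 74 of 2629) and EREB209 (2.27e-04, rank 92 of 2159). Its 73 TFs belonged to 19 families, and the median position in their lists was at 29.5% from the top.

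COL3 had only weak edges. bHLH47 listed it with a p of 0.0131, at rank 1628 of 3077, and C3H40 with a p of 0.0456, at rank 2240 of 2310. No COL TF and no clock or GLK protein listed it, but only 1.92% of all TFs did. As a TF, COL3 listed 3214 genes.

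By family, COL18 was listed by most members of most of the 11 families with at least 4 profiled TFs. It was listed by 13 of 14 EREB, 9 of 11 bHLH, 8 of 10 MYBR, 6 of 9 MYB, 6 of 7 HB, 6 of 6 ZIM, 5 of 6 bZIP and 4 of 5 WRKY proteins. It was listed by 0 of 7 GLK and 0 of 4 C2C2-DOF proteins. COL13, COL3 and COL8 were also listed by 0 of 7 GLK proteins, and COL2 and COL7 by 2 of 7 each. Over all 104 TFs, 70.2% listed COL18. Shares of 66.7% (MYB), 80% (MYBR and WRKY), 81.8% (bHLH) and 83.3% (bZIP) were not far from that, in families of 5 to 11 TFs. The shares over all TFs were 26.0% for COL13, 18.3% for COL7, 17.3% for COL2 and 1.92% for COL3.

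COL13 was listed by 7 of 11 bHLH and 6 of 10 MYBR proteins but by 3 of 14 EREB, and by 0 of 9 MYB and 0 of 7 HB proteins. COL7 was listed by 3 of 7 HB, 3 of 6 ZIM and 3 of 14 EREB proteins and by 0 of 10 MYBR. COL2 was listed by 4 of 11 bHLH, 2 of 7 HB, 2 of 6 ZIM and 2 of 14 EREB proteins. Over all 104 TFs, the shares were 26.0% for COL13, 18.3% for COL7 and 17.3% for COL2. Some family counts lay near these shares, such as 3 of 14 EREB proteins (21.4%) for COL7 and COL13. Others lay further off, such as 7 of 11 bHLH proteins (63.6%) for COL13. A mean target gene was listed by 9.87% (MYBR) to 15.2% (C2C2-COL) of the TFs of these families, while the share of a family that listed a COL gene ran from 0% to 100%. No test of these differences was run, since the TFs of a family are not replicates.

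**Figure D3:**
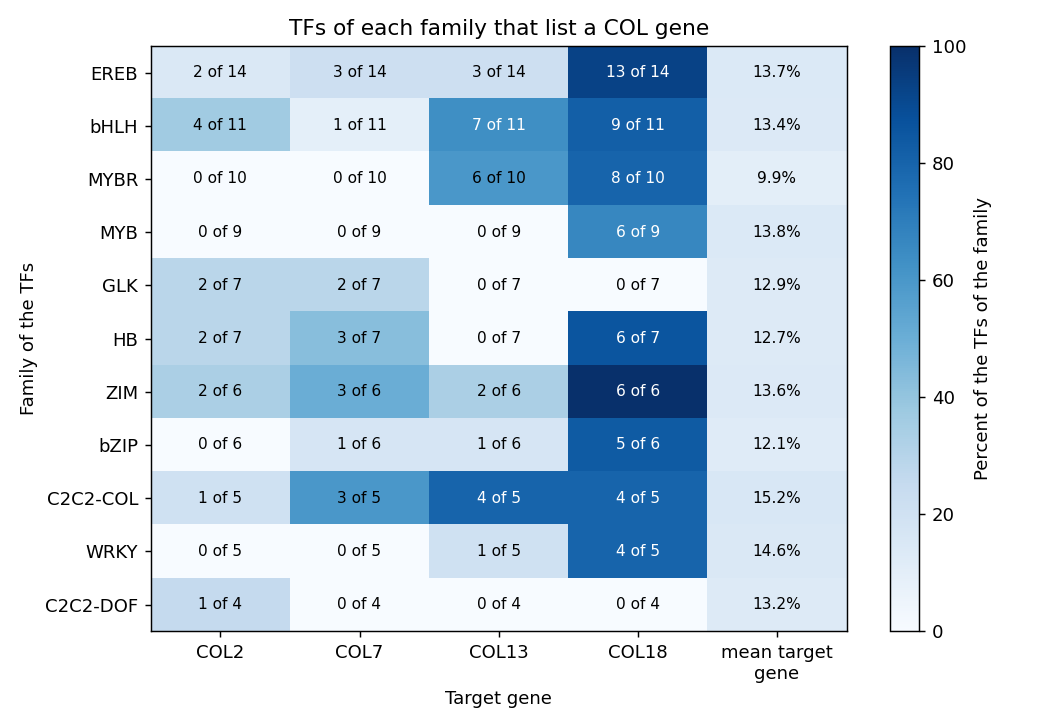
The number of TFs in each family of at least 4 profiled TFs (rows) that list COL2, COL7, COL13 and COL18 (columns), coloured by percent of the family, with the mean percent for a target gene in the last column. COL18 is dark in every family but GLK and C2C2-DOF, COL13 is darkest in C2C2-COL, bHLH and MYBR, and the C2C2-COL row includes each gene's own TF, except for COL18, which the study's list puts in no family.

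Pairs of COL TFs were then examined. Of the 30 possible pairs of a COL TF with the gene of another COL, 15 were listed (50%). Over all target genes, COL2 listed 16.4%, COL3 16.0%, COL7 15.0%, COL8 14.2%, COL13 14.6% and COL18 15.8%. Other families varied on the same measure. Within-family pairs were listed in 80% of cases for ZIM, 65% for WRKY and 58.8% for EREB proteins, in 35.7% for GLK, 35.7% for HB and 33.3% for C2C2-DOF proteins, and in 19.4% for MYB, 18.2% for bHLH, 12.2% for MYBR and 0% for bZIP proteins. The C2C2-COL family alone, without COL18, had 8 of 20 pairs listed (40%), so the COL pairs were neither the densest nor the sparsest.

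The COL-to-COL edges fell on 4 of the 6 genes. COL13 was listed by all 5 other COL TFs, against 22 of 98 TFs outside the COL group (22.4%). COL7 was listed by 4 of 5, against 15 of 98 (15.3%). COL18 was listed by 4 of 5, against 69 of 98 (70.4%), so COL TFs were no exception there. COL2 was listed by 2 of 5, against 16 of 98 (16.3%). COL3 was listed by 0 of 5, against 2 of 98 (2.04%). In all, COL TFs supplied 10.8% of the edges to COL genes and 6.78% of all edges in the table. This order did not hold for the stronger edges. Among pairs with a p of 0.001 or less the shares were 6% (3 of 50 edges) and 7.25%, with a p of 1e-05 or less 4.76% (1 of 21) and 6.48%, and among the 500 best targets of each TF 3.03% (1 of 33) and 5.87%.

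The median p of these 15 edges was 0.00624, against 0.00809 over all listed pairs. Of the 15, 3 had a p of 0.001 or less (27.2% of all listed pairs did) and 3 had a p above 0.04 (9.32% of all listed pairs did). The 3 strong ones were COL8 to COL7, COL8 to COL13 and COL3 to COL2, with the values given above. COL8, which was itself listed by no TF, was thus the source of the 2 smallest p-values among them. COL13, listed by every other COL TF, was listed by COL2 with a p of 0.00149, by COL7 with 0.0207, by COL3 with 0.0456 and by COL18 with 0.0497, so 2 of its 5 COL edges lay just inside the limit of the table. COL18 was listed by COL3 with a p of 0.00128, by COL8 with 0.00322, by COL13 with 0.0262 and by COL2 with 0.0276. Edges in both directions joined COL2 with COL18, COL7 with COL13, and COL13 with COL18, which is 3 of the 15 possible pairs of genes. A further 9 pairs had an edge in 1 direction and 3 pairs had none.

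**Figure D4:**
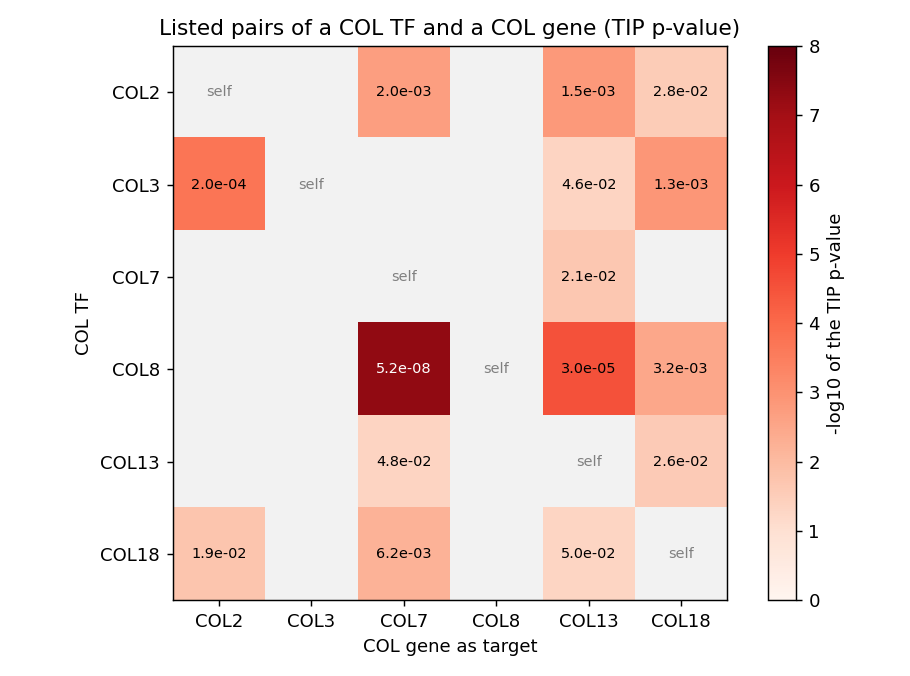
TIP p-values of the listed pairs of a COL TF (rows) and a COL gene (columns), coloured by −log10 p, with unlisted pairs in grey and self pairs marked. The COL3 and COL8 columns are empty, the COL13 column is full apart from its self pair, and COL8 to COL7 (5.17e-08) is the darkest cell.

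GLK1, GLK2, the clock proteins and MYBR26 were followed in both directions, as a list chosen with earlier results of these data known. GLK1 and COL2 listed each other, with a p of 4.62e-56 from GLK1 and of 1.70e-06 from COL2. GLK1 and COL7 also listed each other, with a p of 0.00124 from GLK1 and of 0.0339 from COL7. The GLK1 gene, with an in-degree of 18, was listed by all 6 COL TFs, while GLK1 listed 2 COL genes. The p-values of the other COL TFs at the GLK1 gene were 3.23e-05 for COL8, 1.66e-04 for COL18, 3.54e-04 for COL13 and 0.00156 for COL3. The GLK2 gene, with an in-degree of 4, was listed by COL8 alone among them (p of 0.0194).

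The clock proteins differed in the direction of their edges. The gene of orphan180, a pseudo-response regulator (PRR) in the study's list, had an in-degree of 54 and was listed by all 6 COL TFs. The p-values were 1.64e-15 for COL3 (rank 13 of 3214), 2.70e-14 for COL18 (rank 19 of 3174), 5.36e-09 for COL13, 1.53e-08 for COL8, 8.31e-08 for COL7 (rank 16 of 3013) and 4.20e-07 for COL2. In the other direction orphan180 listed COL18 only, with a p of 0.00425 at rank 622 of 2208. PCO135758, of the ELF3 family, listed COL18 (1.14e-06, rank 250 of 2969) and no other COL gene. LHY1 likewise listed only COL18, with a p of 0.0310 at rank 2156 of 2519. COL18 was listed by 70.2% of all TFs. In total, 39 TFs listed it and no other COL gene, so that pattern was not particular to the clock proteins. The genes of LHY1 (in-degree 4) and PCO135758 (in-degree 7) were listed by no COL TF. MYBR26 listed COL13, as given above, and COL18 (0.0132, rank 1402 of 1637), and no COL TF listed its gene (in-degree 4).

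The listing TFs of the COL genes overlapped in part. COL2 and COL7, close in in-degree, shared 8 TFs, which is 44.4% of those of COL2 and 42.1% of those of COL7. COL7 and COL13 shared 9 (47.4% of COL7, 33.3% of COL13), and COL2 and COL13 shared 9 (50% of COL2, 33.3% of COL13). Of the TFs that list COL13, 23 also listed COL18 (85.2% of COL13, 31.5% of COL18). Of those that list COL7, 16 also listed COL18 (84.2% of COL7, 21.9% of COL18). COL2 shared fewer of its TFs with COL18, 12 in all (66.7% of COL2, 16.4% of COL18). These shares are to be read against the share of all TFs that list the partner gene. That share was 70.2% for COL18, 26.0% for COL13, 18.3% for COL7 and 17.3% for COL2.

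A few TFs reached most of the COL genes. bHLH47 listed all 5 that had a row. TCP10, ZIM16 and ZIM3 listed 4 each, namely COL2, COL7, COL13 and COL18. A further 10 TFs listed 3 COL genes, 23 listed 2, 46 listed 1 and 21 listed none. The 21 included the GLK proteins other than GLK1 and GLK2, and also DOF17, DOF22, DOF30, MYB6, MYB31 and MYB56. COL18 accounted for most of the TFs with a single COL target, since 39 TFs listed it and no other COL gene. The corresponding number was 3 for COL2 (DOF21, EREB97 and GRAS23), 3 for COL13 (COL7, MYBR32 and bHLH129), 1 for COL3 (C3H40) and 0 for COL7.

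Similarity of a gene's listing TFs to those of a COL gene was measured as the Jaccard index, the number of shared TFs over the number that list either, among genes listed by at least 5 TFs. For COL18 the most alike genes were Zm00001d010399 (0.80, 66 TFs shared of its 76), Zm00001d045460 (0.79, 70 of 86) and Zm00001d031777 (0.78, 71 of 89), with which another gene tied. High values are easily reached among genes that most TFs list. For COL13, 3 genes reached 0.50, namely Zm00001d007018 (21 shared of 36), Zm00001d042274 (14 of 15) and Zm00001d044121 (19 of 30). For COL2 the closest were Zm00001d010488 (0.46, 12 of 20), Zm00001d042213 (0.46, 11 of 17) and Zm00001d005808 (0.42, 10 of 16). For COL7 they were Zm00001d023635 (0.43, 9 of 11), Zm00001d045112 (0.41, 16 of 36) and Zm00001d043870 (0.41, 9 of 12). No other gene had exactly the pair of TFs that list COL3, though 1288 had both among theirs.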

How the data were processed

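Each of the 217 libraries was assigned to its TF by the label that names the factor. As the study's methods state, the authors aligned reads to B73 RefGen_v4 with Bowtie2 2.2.5, filtered them with SAMtools 1.3, called peaks with SPP, kept peaks reproducible between replicates, removed peaks at each TF's own locus and scored genes with TIP under a false discovery rate threshold. The deposited table gives 1 p-value per listed TF and gene. It holds 1 value per TF, with no column per library, and pairs without a row have no value here.

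From it, in-degree, rank in each TF's list, summed −log10 p, overlaps and Jaccard indices were computed with Python 3.11.15, pandas 2.3.3 and numpy 2.4.6, and drawn with matplotlib 3.10.9. The scripts were tested on simulated data. No significance test was run. TF names and families follow the study's TF list, where orphan180 is a PRR protein and COL18 has no family.

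TFs were named by rule: all where at most 10 list the gene, otherwise the 8 of smallest p, plus COL TFs, a list of 6 TFs (LHY1, PCO135758, orphan180, MYBR26, GLK1, GLK2) and those ranking the gene in their best 100. Other names are examples chosen after their values were seen. The members and lists were chosen with earlier results of these data known. Promoter motifs and coordinates were not analysed here.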

Additional observations from a re-analysis of the deposited data

How the results depend on the processing

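The order of COL18 over the other COL genes held under each alternative, and COL8 stayed at 0. With p of 0.001 or less, in-degrees were 36 for COL18, 7 for COL13, 6 for COL2, 1 for COL7 and 0 for COL3, and COL TFs gave 3 edges to COL genes (6% of the edges to COL genes). With p of 1e-05 or less, they were 14 for COL18, 3 for COL13, 3 for COL2, 1 for COL7 and 0 for COL3, with 1 COL edge (4.76%). With the 500 best targets of each TF, they were 27, 2, 3, 1 and 0 in the same order, with 1 COL edge (3.03%). The share of COL edges thus fell below the 10.8% of the full lists under all 3 stricter settings, and the order of COL13, COL7 and COL2 changed with the setting. The cause was not tested. Leaving out the 4 TFs with fewer than 1000 targets (MYBR40, MYBR64, MYBR96 and bHLH91) moved none of these values by over 1.5 times. Capping the weight of an edge near 10 lowered the summed −log10 p of COL2 to 55.1, below the 64.5 of COL13, so the place of COL2 on that weight rests on GLK1. With p of 0.001 or less, 0 of the 3 most alike genes of COL2, COL13 and COL18 were the same, and COL7 gave no value. No paired analysis was possible because the table merges the replicates. Depth per library is unknown, and pairs without a row have no value.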
